A study of Homo sapiens with 12 samples.

Results

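Complement and acute-phase secreted proteins are read here through 9 genes: C1R, C1S, C3, CFB, CFI, LCN2, LTF, CP and HP. Their members are all probe sets, groups of short probes read together as 1 value, whose only gene symbol in the platform annotation is one of these names. That gave 15 of the 54675 probe sets on the array, 1 each for C1R, C3, LCN2, LTF and HP, 2 each for C1S, CFB and CFI, and 4 for CP. A further probe set that the annotation gives to both HP and its near-identical neighbour HPR is not a member, and its values are given beside those of HP.

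RNA came from MCF-10A, an immortalised line of human breast epithelium that does not form tumours, taken 48 h after retroviral infection and read on 12 Affymetrix arrays. Of the 4 groups of 3 biological replicates, 1 received NICD, 1 Notch1 L1601P+∆P, 1 wild-type full-length Notch1 and 1 the empty vector, so infection with a retrovirus is common to all. NOTCH1 is a cell-surface receptor whose cleavage frees an intracellular domain, NICD, that acts in the nucleus with the DNA-binding protein RBPJ. The L1601P substitution affects the region where the extracellular and membrane-bound subunits of the receptor bind each other, and ∆P takes away the PEST sequence near the C-terminus, through which active NICD is degraded. The NICD samples are described as NICDgfp, without saying how GFP was attached, if at all. The labels do not tell whether replicates came from separate cultures and infections, and the p-values cover only the spread between these samples, which may be technical. In bulk RNA, a change in the share of cells that express a gene and a change in RNA per cell cannot be told apart.

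Complement is a cascade of blood and tissue proteins that marks surfaces for clearance. C1R and C1S are the paired serine proteases of the first classical pathway complex, C3 is the central component that all routes cleave, CFB supplies the protease of the alternative pathway, and CFI is the protease that inactivates the C3 and C4 fragments. LCN2 binds bacterial siderophores and LTF binds iron, both being secreted defence proteins of mammary and other epithelia. CP carries copper and oxidises iron, and HP captures free haemoglobin. Liver makes most of the plasma pool of complement and acute-phase proteins during inflammation, while epithelia make several of them locally.

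RefSeq promoter sequence (GRCh38.p14) was held for 5 of the 9 genes, at 8 starts, and C1S, C3, CP and HP had none. The 250 bases before the start are printed for C1R and CFB, which were higher with NICD, for CFI, which was lower, and for LCN2, which was not called, so that the groups can be read side by side. Capitals mark matches on either strand to short motifs bound by RBPJ (TGGGAA), STAT factors (TTCNNNGAA), C/EBP factors (TTGCNNAA), NF-kB (GGG, any 2 bases, T, any 2 bases, CC) or interferon regulatory factors (GAAA, any 2 bases, GAAA). All runs are 5′ to 3′ on the gene's own strand.
C1R upstream start, chr12:7092446-7092695, minus strand: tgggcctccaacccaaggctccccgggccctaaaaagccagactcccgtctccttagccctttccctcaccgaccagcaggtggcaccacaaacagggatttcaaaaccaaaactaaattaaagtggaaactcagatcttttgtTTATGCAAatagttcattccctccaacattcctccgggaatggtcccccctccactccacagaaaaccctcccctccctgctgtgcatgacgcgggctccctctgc
C1R downstream start, chr12:7091894-7092143, minus strand: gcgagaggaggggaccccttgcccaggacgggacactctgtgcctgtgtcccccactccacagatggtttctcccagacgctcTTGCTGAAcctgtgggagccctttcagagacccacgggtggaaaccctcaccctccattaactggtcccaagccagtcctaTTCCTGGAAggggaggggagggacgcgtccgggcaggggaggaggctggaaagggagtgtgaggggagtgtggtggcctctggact
CFB, chr6:31945845-31946094, plus strand: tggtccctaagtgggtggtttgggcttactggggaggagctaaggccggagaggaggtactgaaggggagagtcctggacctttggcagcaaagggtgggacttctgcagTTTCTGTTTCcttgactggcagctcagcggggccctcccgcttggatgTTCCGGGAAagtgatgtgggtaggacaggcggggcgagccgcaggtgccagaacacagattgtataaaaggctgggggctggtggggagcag
CFI, chr4:109802000-109802249, minus strand: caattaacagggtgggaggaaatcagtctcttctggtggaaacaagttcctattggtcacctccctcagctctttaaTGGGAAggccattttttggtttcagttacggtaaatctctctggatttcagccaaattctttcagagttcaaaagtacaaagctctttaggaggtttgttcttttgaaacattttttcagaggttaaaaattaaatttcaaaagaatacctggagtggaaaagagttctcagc
LCN2, chr9:128149203-128149452, plus strand: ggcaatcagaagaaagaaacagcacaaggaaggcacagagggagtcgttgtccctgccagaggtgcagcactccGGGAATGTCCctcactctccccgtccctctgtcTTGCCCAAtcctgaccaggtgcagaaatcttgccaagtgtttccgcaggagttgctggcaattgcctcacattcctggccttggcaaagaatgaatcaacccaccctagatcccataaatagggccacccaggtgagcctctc

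The upstream C1R start held 1 C/EBP match, TTATGCAA, beginning at -106 from the start. The downstream C1R start held 1 C/EBP match and 1 STAT match (TTCCTGGAA). CFB held 1 STAT match (TTCCGGGAA) and 1 match for interferon regulatory factors, CFI held 1 RBPJ match and LCN2 held 1 NF-kB and 1 C/EBP match. No match in these windows overlapped another. Of 35116 RefSeq promoters of the same length, 20.8% held the RBPJ letters, 6.57% the STAT letters, 19.7% the NF-kB letters, 9.05% the C/EBP letters and 3.02% those of interferon regulatory factors. LTF, also higher with NICD, has 3 starts in RefSeq, not printed here. The second held 1 NF-kB and 1 C/EBP match, and the third 1 STAT and 1 NF-kB match. Their RBPJ matches numbered 2, 0 and 1 from the first start to the third. The RBPJ letters were thus in windows of a gene that was lower with NICD (CFI) and of a gene that was higher (LTF), and not in those of C1R and CFB. A match describes letters and says nothing of binding.

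Values are the authors' deposited log2 signals. Group means are given ± SD (n = 3 arrays), and differences are log2 fold changes ± the standard error of a limma fit to all 12 arrays. Calls, and the words rose and fell, mean that the p adjusted by Benjamini-Hochberg over the 54613 tested probe sets was under 0.05. Array medians lay between 5.64 and 5.70 and no array was set aside. Having 3 arrays a group limits the precision. The dimmer of 2 NOTCH1 probe sets checked the labels in part: vector arrays averaged 6.54 ± 0.20, and the full-length, mutated and NICD arrays 9.16 ± 0.04, 8.74 ± 0.02 and 8.79 ± 0.04. Mutated (8.72 to 8.76) and NICD arrays (8.75 to 8.83) overlapped, so it cannot tell these groups apart. The other read 9.38 to 9.50 with vector, 9.49 to 9.56 with full-length Notch1, 9.44 to 9.55 with Notch1 L1601P+∆P and 9.64 to 9.83 with NICD. KRT5 and KRT14, keratins of basal mammary epithelium, stood at 13.33 ± 0.04 and 13.33 ± 0.12 with vector and were themselves higher with NICD, by 0.58 ± 0.06 and 0.57 ± 0.07 (adjusted p = 6.55e-06 and 6.23e-05). SFN, the third basal marker tested, was lower, by -0.36 ± 0.05 from 14.06 ± 0.02 (adjusted p = 0.000288, on 3 of 3 probe sets). Of 5 general epithelial markers, KRT8 was higher (0.37 ± 0.08), EPCAM (-0.74 ± 0.07) and KRT18 (-0.24 ± 0.05) were lower (adjusted p = 0.00668, 3.56e-06 and 0.00641), and CDH1 and KRT19 were not called. The mean log2 signal of the basal list lay between 13.51 and 13.61 with vector and between 13.79 and 13.87 with NICD, and that of the epithelial list between 9.83 and 9.93 and between 9.70 and 9.84. The part of these shifts in the results below was not tested. By limma, 0 of 4 leukocyte, 0 of 5 neutrophil and 0 of 6 hepatocyte markers were called with NICD against vector (unadjusted p under 0.05: 0 higher, 1 lower). The mean log2 signal of the leukocyte list lay between 4.95 and 5.01 with vector and between 4.93 and 4.98 with NICD. Of the markers of fibroblasts and of endothelium, DCN (0.36 ± 0.06) and KDR (1.05 ± 0.09) were the ones called.

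Across the 9 genes, NICD raised the classical pathway proteases C1R and C1S most, by 4.58-fold and 5.75-fold, and raised CFB and LTF by less than 2-fold. CFI fell, and C3, LCN2, CP and HP were not called. With Notch1 L1601P+∆P, C1R and C1S were the called genes among the 9, and with full-length Notch1 none of the 9 was called. With NICD against vector, 5 of 15 member probe sets were higher and 2 lower, where 6.75% and 12.6% of all 54613 probe sets were called in those directions. With Notch1 L1601P+∆P the member counts were 3 and 0, against 1.1% and 1.29% of all probe sets. With full-length Notch1 0 of 15 were called by limma (unadjusted p under 0.05: 1 higher, 0 lower), where 0.00732% of all probe sets were called higher and 0.00366% lower. The median difference of the 15 probe sets was 0.12 with NICD, 0.02 with Notch1 L1601P+∆P and -0.01 with full-length Notch1, beside -0.02, -0.01 and -0.01 over all probe sets. The share of all calls that were higher with NICD was 34.9%, and 49.1% after cyclic loess.

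**Figure D1:**
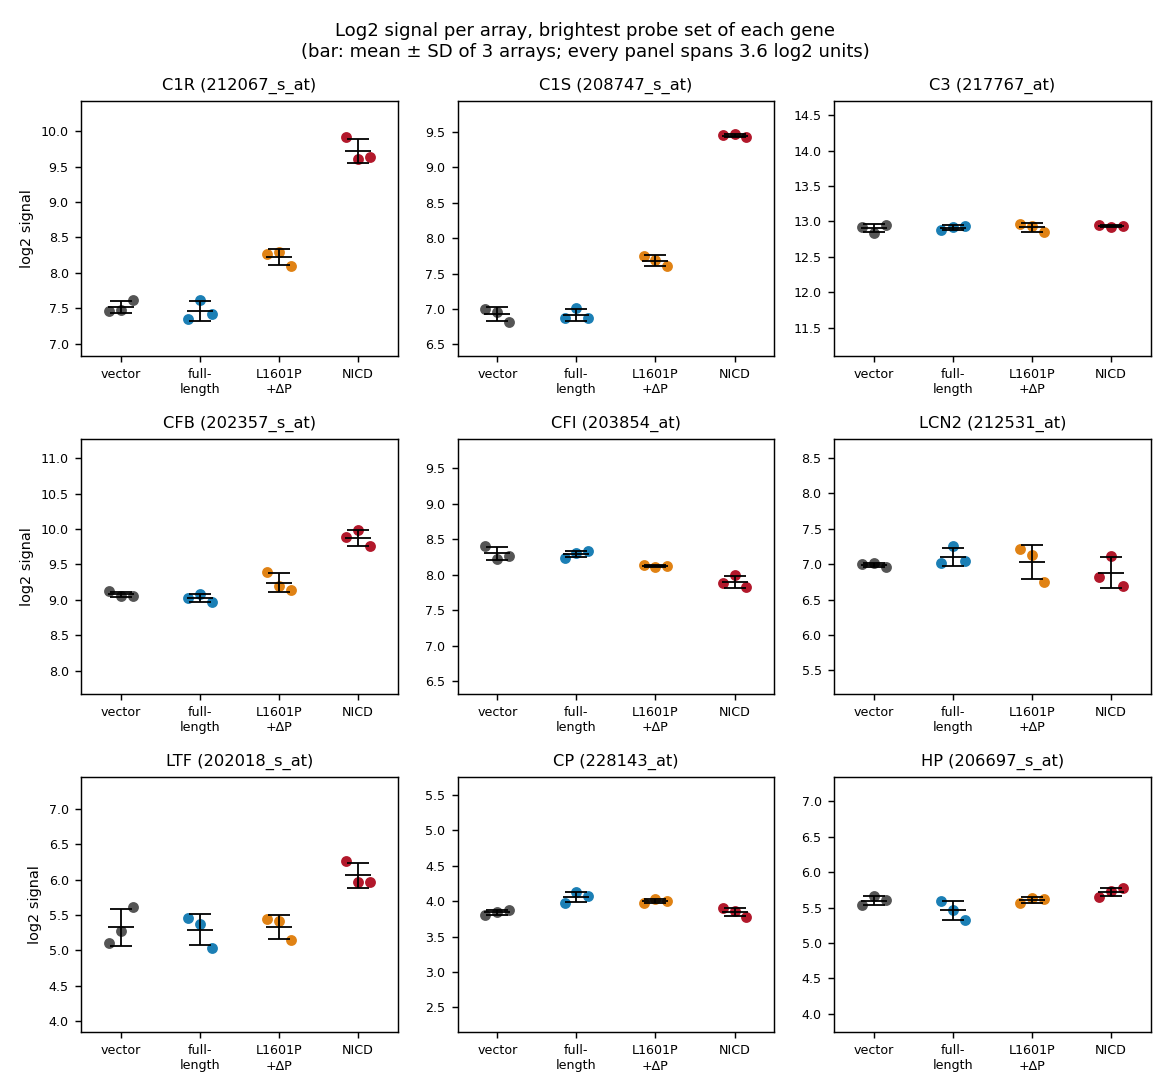
Log2 signal (y axis, every panel spanning 3.6 log2 units) of the brightest probe set of each of the 9 genes on each array, by group (x axis). Points are arrays and bars the mean ± SD of 3. C1R and C1S stand apart with NICD and, by less, with Notch1 L1601P+∆P, while C3 stays between 12.84 and 12.97.

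C1R, the protease that activates C1S within the C1 complex, was read by a single probe set (212067_s_at). Its log2 signal was 7.46, 7.48 and 7.62 with vector and 7.35, 7.62 and 7.42 with full-length Notch1. The 3 Notch1 L1601P+∆P arrays read 8.27, 8.30 and 8.10, and the 3 NICD arrays 9.91, 9.60 and 9.64. Vector and full-length Notch1 overlapped, and each of the other groups lay wholly above them and apart from each other. NICD exceeded vector by 2.19 ± 0.10 (adjusted p = 4.43e-09), and Notch1 L1601P+∆P exceeded it by 0.70 ± 0.10, or 1.63-fold (adjusted p = 0.00176). The step from Notch1 L1601P+∆P to NICD was 1.49 ± 0.10 (adjusted p = 3.65e-07), so that C1R with the mutated receptor reached 32% of the log2 difference seen with NICD. Full-length Notch1 differed from vector by -0.06 ± 0.10, with a 95% interval from -0.27 to 0.16.

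C1S, which cleaves C4 and C2 once C1R has activated it, was read by 2 probe sets with like results. On the brighter one (208747_s_at) the vector arrays read 7.0, 6.96 and 6.81 and the full-length Notch1 arrays 6.87, 7.01 and 6.87. The Notch1 L1601P+∆P arrays read 7.75, 7.69 and 7.60, and the NICD arrays 9.45, 9.47 and 9.42. As for C1R, the first pair of groups overlapped and the others formed separate, higher steps. C1S rose by 2.52 ± 0.07 with NICD (adjusted p = 4.8e-11) and by 0.75 ± 0.07 with Notch1 L1601P+∆P, which is 1.69-fold (adjusted p = 6e-05). The mutated receptor thus gave 29.9% of the NICD difference. Between these 2 groups C1S differed by 1.77 ± 0.07 (adjusted p = 3.15e-09).

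The dimmer C1S probe set (1555229_a_at) averaged 5.97 ± 0.25 in the vector group, 5.81 ± 0.13 in the full-length Notch1 group, 6.75 ± 0.08 in the Notch1 L1601P+∆P group and 8.57 ± 0.10 in the NICD group. It rose by 2.60 ± 0.11 with NICD and by 0.78 ± 0.11 with Notch1 L1601P+∆P (adjusted p = 3.15e-09 and 0.00217). Full-length Notch1 differed from vector by -0.01 ± 0.07 on the brighter C1S probe set and by -0.15 ± 0.11 on the dimmer one, with 95% intervals from -0.16 to 0.14 and from -0.40 to 0.09. Against full-length Notch1 rather than vector, Notch1 L1601P+∆P was higher by 0.76 ± 0.10 for C1R (adjusted p = 0.00132) and by 0.76 ± 0.07 and 0.94 ± 0.11 for C1S (adjusted p = 7.43e-05 and 0.000739). In that comparison 3 of 15 member probe sets were higher and 0 lower, beside 0.925% and 0.709% of all probe sets.

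C1S, C1R and C1RL lie in a row on chromosome 12 in RefSeq. C1RL encodes a C1R-like protease, was taken from the list of other complement components and is no member. On the brighter of its 2 probe sets it stood at 7.80 ± 0.06 with vector and 8.52 ± 0.05 with NICD, a rise of 0.72 ± 0.06 (adjusted p = 2.36e-06). With Notch1 L1601P+∆P it differed by 0.01 ± 0.06 and was not called, and the other C1RL probe set was not called with NICD.

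C3, the component cleaved by every activation route, kept nearly 1 level. Its probe set (217767_at) read 12.92, 12.84 and 12.95 on the vector arrays, 12.88, 12.92 and 12.94 on those of full-length Notch1, 12.97, 12.94 and 12.85 on those of Notch1 L1601P+∆P and 12.95, 12.92 and 12.93 on those of NICD. All groups overlapped, and the whole range over 12 arrays was 0.12. The difference between NICD and vector was 0.03 ± 0.06 (adjusted p = 0.804), with a 95% interval from -0.10 to 0.15, or 0.936-fold to 1.11-fold. The probe set was brighter on average than 99.3% of all probe sets. Scanner files were not used, so saturation of its probes was not tested.

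CFB, the zymogen of the alternative pathway's C3-cleaving enzyme, rose with NICD on its brighter probe set (202357_s_at). The arrays read 9.12, 9.06 and 9.05 for vector, 9.02, 9.09 and 8.97 for full-length Notch1 and 9.40, 9.19 and 9.14 for Notch1 L1601P+∆P. With NICD they read 9.89, 9.98 and 9.76, above all 9 others. The rise was 0.80 ± 0.08 against vector, or 1.74-fold (adjusted p = 9.51e-06), and 0.63 ± 0.08 against Notch1 L1601P+∆P (adjusted p = 0.000127). Notch1 L1601P+∆P differed from vector by 0.16 ± 0.08 without being called (adjusted p = 0.33), although its arrays did not overlap those of vector. In that comparison 5 of 15 member probe sets lay wholly higher and 2 wholly lower, beside 9.47% and 14.6% of all probe sets. The other CFB probe set (211920_at) lay between 4.50 and 5.15 on all arrays and was not called in any of the 6 comparisons. With NICD it differed by -0.15 ± 0.13, and its 95% interval, from -0.43 to 0.13, does not include the rise of the brighter one. The CFB transcripts behind each of them were not analysed here.

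CFI, the inactivating protease and the only regulator among the members, was lower with NICD on both of its probe sets. The brighter one (203854_at) read 8.41, 8.22 and 8.27 on the vector arrays, 8.24, 8.30 and 8.33 on those of full-length Notch1, 8.14, 8.11 and 8.13 on those of Notch1 L1601P+∆P and 7.88, 7.99 and 7.83 on those of NICD. The NICD arrays lay below all others, and those of Notch1 L1601P+∆P lay between NICD and the remaining groups. CFI fell by 0.40 ± 0.07 on this probe set with NICD, to 0.759 times the vector level (adjusted p = 0.000795). The dimmer one (1555564_a_at) went from 8.14 ± 0.04 with vector to 7.55 ± 0.13 with NICD, a difference of -0.59 ± 0.07 (adjusted p = 3.53e-05).

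With Notch1 L1601P+∆P, CFI differed from vector by -0.18 ± 0.07 and -0.20 ± 0.07 on the 2 probe sets, and neither was called (adjusted p = 0.21 and 0.159). Their arrays did not overlap those of vector and are the 2 probe sets counted as wholly lower above. NICD was lower than Notch1 L1601P+∆P by -0.22 ± 0.07 and -0.39 ± 0.07 (adjusted p = 0.0457 and 0.00188). The first of these calls was lost without Notch1 L1601P+∆P replicate 1, 2 or 3 (adjusted p = 0.127, 0.093 and 0.0999) and without NICD replicate 1 or 3 (adjusted p = 0.12 and 0.143). It was also lost with the replicate block (adjusted p = 0.0817), and the second call was kept throughout the alternatives run. In the comparison of NICD with Notch1 L1601P+∆P as a whole, 5 of 15 member probe sets were higher and 2 lower, against 6.04% and 7.01% of all probe sets.

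**Figure D2:**
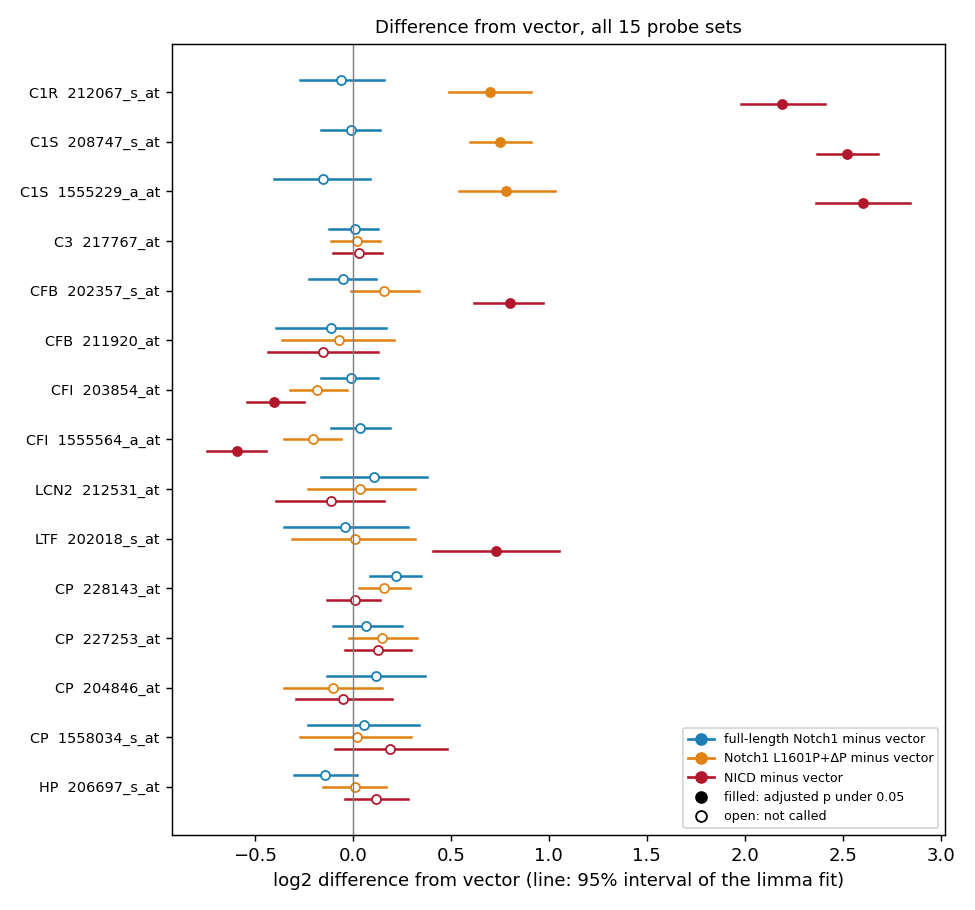
Log2 difference from vector (x axis) of all 15 probe sets (y axis), by Notch1 form, with the 95% interval of the limma fit as a line and filled points for an adjusted p under 0.05. The 3 probe sets of C1R and C1S lie furthest from 0 with NICD (2.19 to 2.60), and both CFI probe sets lie below 0 (-0.40 and -0.59).

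LTF, lactoferrin, was read by 1 probe set (202018_s_at) and rose with NICD alone among the Notch1 forms. It read 5.10, 5.27 and 5.61 for vector, 5.46, 5.37 and 5.04 for full-length Notch1 and 5.44, 5.42 and 5.14 for Notch1 L1601P+∆P. The NICD arrays, at 6.26, 5.96 and 5.96, lay above these 9. The rise was 0.73 ± 0.15 against vector, or 1.66-fold (adjusted p = 0.00302), and 0.72 ± 0.15 against Notch1 L1601P+∆P (adjusted p = 0.00493). Notch1 L1601P+∆P differed from vector by 0.01 ± 0.15, with a 95% interval from -0.31 to 0.32.

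LCN2, lipocalin 2, was not called in any comparison. Its probe set (212531_at) read 7.0, 7.01 and 6.96 on the vector arrays, 7.02, 7.25 and 7.04 on those of full-length Notch1, 7.21, 7.13 and 6.75 on those of Notch1 L1601P+∆P and 6.82, 7.12 and 6.69 on those of NICD. The NICD arrays spread around those of vector. NICD differed from vector by -0.11 ± 0.13 (adjusted p = 0.622), and the 95% interval from -0.39 to 0.16 reached 1.12-fold at its upper end.

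CP, ceruloplasmin, gave dim signals on all 4 of its probe sets, between 3.03 and 4.13 over the 12 arrays. Their means were at or above those of only 11.2% to 21.2% of all probe sets. None of the 4 was called against vector with any Notch1 form, and NICD differed from vector by -0.05 to 0.19. The brightest (228143_at) read 3.80, 3.84 and 3.88 on the vector arrays, 3.98, 4.13 and 4.07 on those of full-length Notch1, 3.97, 4.03 and 4.0 on those of Notch1 L1601P+∆P and 3.90, 3.86 and 3.78 on those of NICD. It was lower with NICD than with full-length Notch1 by -0.21 ± 0.06 (adjusted p = 0.029). That call was lost without full-length Notch1 replicate 2 or 3 (adjusted p = 0.113 and 0.0856) or NICD replicate 3 (adjusted p = 0.1). It was also lost with a trended, robust moderation (adjusted p = 0.128) and in a fit of only the 2 groups (adjusted p = 0.0976).

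HP, haptoglobin, was not called against vector either. Its probe set (206697_s_at) read 5.53, 5.66 and 5.60 on the vector arrays, 5.59, 5.47 and 5.32 on those of full-length Notch1, 5.56, 5.64 and 5.62 on those of Notch1 L1601P+∆P and 5.65, 5.73 and 5.77 on those of NICD. NICD and vector overlapped by 1 array and differed by 0.12 ± 0.07 (adjusted p = 0.313). Against full-length Notch1, NICD was higher by 0.26 ± 0.07 (adjusted p = 0.0268). This call was lost without full-length Notch1 replicate 2 or 3 (adjusted p = 0.0644 and 0.12) or NICD replicate 2 or 3 (adjusted p = 0.062 and 0.0885). A trended, robust moderation (adjusted p = 0.0617) and a fit of only the 2 groups (adjusted p = 0.0852) lost it too. The probe set shared by HP and HPR stood at 4.49 ± 0.04 with vector and 4.91 ± 0.08 with NICD, a rise of 0.42 ± 0.13 (adjusted p = 0.0338). Which of the genes it reads cannot be told apart. The probe set of HPR alone stood at 4.89 ± 0.11 with vector and differed by 0.08 ± 0.10 (adjusted p = 0.678). Neither gene was thus called with NICD on its own probe set. The shared probe set was not part of the alternatives run. Over the whole comparison of NICD with full-length Notch1, 6 of 15 member probe sets were higher and 3 lower, where 7.14% and 11.1% of all probe sets were.

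The order of the groups was thus the same for C1R and C1S, with vector and full-length Notch1 not differing beyond their spread, Notch1 L1601P+∆P above them and NICD highest. For CFB and LTF the called step was the one to NICD, and vector, full-length Notch1 and Notch1 L1601P+∆P did not differ by a called amount. CFI had NICD lowest, its step from Notch1 L1601P+∆P being called on both probe sets and kept under the alternatives run on 1. For C3 and LCN2 no neighbours in the order differed by a called amount.

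Of 21 other complement components tested, 1 rose and 1 fell with NICD, against 8.46% and 15.8% of all 19775 genes on their brightest probe sets. Over the same genes, 1.64% and 1.75% were called higher and lower with Notch1 L1601P+∆P, and 0.0152% and 0.00506% with full-length Notch1. These shares also stand beside the counts of the other lists below. The riser was C1RL. C5, the precursor of the C5a peptide and of the membrane attack complex, fell by 0.61 ± 0.10 from 5.98 ± 0.16 (adjusted p = 0.000534). C2, a substrate of C1S, stood at 5.99 ± 0.13 with vector and differed by 0.07 ± 0.11 with NICD (adjusted p = 0.736). C1QA, a chain of the C1q subunit that binds C1R and C1S in the C1 complex, stood at 4.96 ± 0.04 and differed by -0.07 ± 0.08. The list's median difference was 0.02, beside -0.02 over all genes. With Notch1 L1601P+∆P and with full-length Notch1 none of these 21 was called by limma (unadjusted p under 0.05: 0 higher, 1 lower, and 1 higher, 0 lower). C4A and C4B, the other substrates of C1S, had no probe set of their own and were not analysed here.

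Of 19 complement regulators and receptors, 3 rose and 6 fell with NICD, beside 8.46% and 15.8% of all genes. The list median was -0.07. CD59, the membrane inhibitor of the attack complex, rose from 12.81 ± 0.05 to 13.80 ± 0.03, by 0.99 ± 0.05 (adjusted p = 2.98e-08), on all 5 of its probe sets. CLU, clusterin, fell by 0.69 ± 0.09 (adjusted p = 0.00014), on 3 of its 4 probe sets. CD55, which speeds the decay of C3-cleaving enzymes, fell by 0.49 ± 0.07 (adjusted p = 0.000376). CD46, the membrane cofactor with which CFI cleaves its substrates, fell by 0.26 ± 0.06 from 12.45 ± 0.03 (adjusted p = 0.00604). That last call was lost after cyclic loess (adjusted p = 0.0556). C3AR1 and C5AR2 rose by 0.37 ± 0.09 and 0.22 ± 0.07 from low vector signals (4.92 ± 0.08 and 3.44 ± 0.09). Their calls (adjusted p = 0.0139 and 0.0383) were lost under 1 and 8 of 13 alternatives. Among the genes that fell, C5AR1 lost its call under 4 of 13 alternatives and C1QBP under 5 of 14. Under Notch1 L1601P+∆P, 2 of the 19 rose and 0 fell by limma (unadjusted p under 0.05: 4 higher, 4 lower). CD59 rose by 0.36 ± 0.05 (adjusted p = 0.00287) and CR1 by 0.37 ± 0.08 from 5.16 ± 0.09 (adjusted p = 0.0259). CR1 was called on 1 of its 5 probe sets, and that call was lost under 7 of 13 alternatives (adjusted p up to 0.117).

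Of 20 other acute-phase proteins, 4 rose and 1 fell with NICD, beside 8.46% and 15.8% of all genes. Their median difference was 0.10. SERPINA3, alpha-1-antichymotrypsin, rose from 10.81 ± 0.11 to 14.45 ± 0.04 (3.64 ± 0.07, adjusted p = 1.29e-12) and was also called with full-length Notch1 (0.55 ± 0.07, adjusted p = 0.0163). The latter call was lost under 6 of 14 alternatives (adjusted p up to 0.488). They were the fit of only the 2 groups compared and the removal of vector replicate 2 or 3 or any full-length Notch1 replicate. FGG, a fibrinogen chain, rose by 0.80 ± 0.11 from 4.61 ± 0.16 (adjusted p = 0.000158). AGT, angiotensinogen, rose by 0.77 ± 0.09 from 5.30 ± 0.10 (adjusted p = 2.43e-05). LBP, the lipopolysaccharide-binding protein, rose by 0.47 ± 0.12 from 5.48 ± 0.29 (adjusted p = 0.0142). The vector levels of FGG, AGT and LBP lay below the lowest array median of 5.64. RBP4, the retinol carrier of plasma, fell by 0.52 ± 0.12 from 5.79 ± 0.15 (adjusted p = 0.00602), on 1 of its 2 probe sets. The mutated receptor raised SERPINA3 by 2.47 ± 0.07 (adjusted p = 5.72e-10), and 1 other gene of the list, SERPINA1, was called lower with it. SERPINA1 was called on 1 of its 4 probe sets, and that call was lost under 8 of 14 alternatives (adjusted p up to 0.135).

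Among 19 secreted epithelial antimicrobial proteins, the kin of LTF and LCN2 in function, 8 rose and 1 fell with NICD. The shares over all genes were 8.46% and 15.8%, and the list median was 0.14. SCGB1A1, a small secretory protein of airway epithelium, rose by 3.04 ± 0.11 (adjusted p = 4.15e-10), S100A7 by 2.80 ± 0.18 (adjusted p = 1.37e-07) and PI3, the elastase inhibitor elafin, by 2.64 ± 0.06 (adjusted p = 1.42e-11). RNASE7, an antimicrobial ribonuclease of skin, fell by 1.13 ± 0.14 (adjusted p = 5.29e-05). In cells with Notch1 L1601P+∆P 3 rose and 1 fell, PI3 by 1.91 ± 0.06 and SCGB1A1 by 1.44 ± 0.11 (adjusted p = 4.47e-09 and 6.76e-06). The 1 that fell, RNASE7 (-0.70 ± 0.14, adjusted p = 0.0173), lost its call without vector replicate 2 or 3 or Notch1 L1601P+∆P replicate 2 or 3 (adjusted p up to 0.0694). Of 20 genes of iron, copper and haem handling, the partners of LTF, LCN2, CP and HP, 2 rose and 4 fell with NICD. These counts were near the 8.46% and 15.8% of all genes called in those directions. STEAP4, a metalloreductase, rose by 0.72 ± 0.09 (adjusted p = 0.000108) on 1 of its 2 probe sets. SLC11A2, a divalent metal transporter, fell by 0.66 ± 0.07 (adjusted p = 8.56e-06), on 3 of its 5 probe sets. None of these 20 was called with Notch1 L1601P+∆P by limma (unadjusted p under 0.05: 2 higher, 6 lower).

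Of 24 acute-phase inducers, their receptors and transcription factors, 8 rose and 3 fell with NICD, beside 8.46% and 15.8% of all genes. Their median was 0.19. With NICD, the calls of IL17C, IL6ST, IL17RA and NFKBIZ were lost under 4, 1, 8 and 3 of 14 alternatives. The cytokine IL6, the main inducer of the hepatic acute phase, rose from 4.95 ± 0.12 to 8.52 ± 0.10 (3.57 ± 0.09, adjusted p = 1.76e-11), and the interleukin-1 receptor IL1R1 rose by 2.88 ± 0.06 (adjusted p = 4.36e-12). OSMR, the oncostatin M receptor, rose by 0.92 ± 0.05 (adjusted p = 4.32e-08). IL6R, the ligand-binding IL6 receptor chain, fell by 1.19 ± 0.09 on the brightest of 3 probe sets, all of them called (adjusted p = 5.41e-07), and IL1A fell by 0.72 ± 0.07 (adjusted p = 1.34e-05). For Notch1 L1601P+∆P 2 rose and 1 fell, IL1B by 0.80 ± 0.08 and IL1R1 by 0.54 ± 0.06 upward (adjusted p = 0.000133 and 0.000338) and IL6R by -0.60 ± 0.09 (adjusted p = 0.00251). With full-length Notch1 none of the 24 was called by limma (unadjusted p under 0.05: 0 higher, 0 lower).

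**Figure D3:**
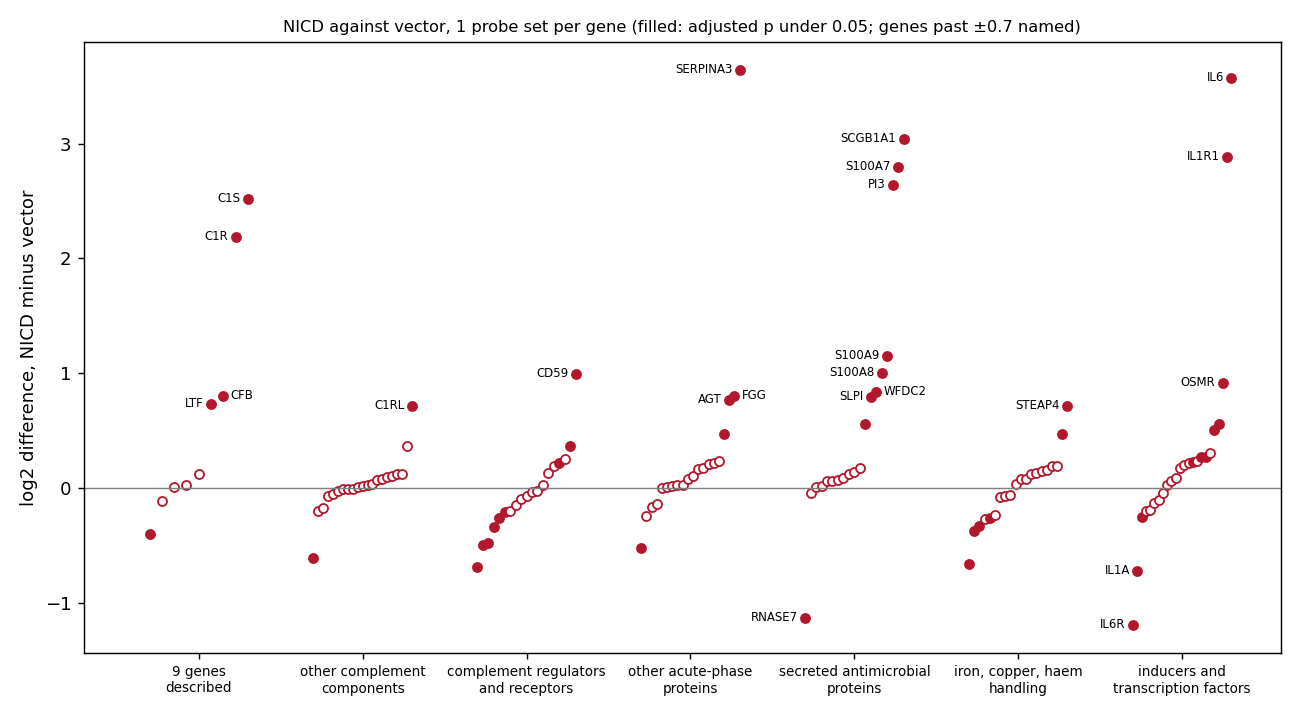
Log2 difference between NICD and vector (y axis) of the brightest probe set of each gene, for the 9 genes and the 6 other lists (x axis), with filled points for an adjusted p under 0.05. C1S (2.52) and C1R (2.19) stand well above CFB (0.80) and above the list of other complement components, in which C1RL (0.72) is highest. SERPINA3 (3.64) and IL6 (3.57) are the highest points drawn.

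The genes most like each called member were sought by Pearson correlation over the 12 arrays among the 1080 non-member probe sets of 1 symbol whose group means spanned at least 1 log2 unit. Arrays of 1 group share their treatment, so these values describe the pattern over 4 groups more than that over 12 arrays. The nearest to C1S were S100A3 (r = 0.998), PDZK1IP1 (r = 0.998) and TNFAIP3 (r = 0.997), and those to C1R were PXDNL (r = 0.996), PPM1L (r = 0.995) and PANX1 (r = 0.993). CFB was nearest to S100A9 (r = 0.992), S100A7 (r = 0.986) and, on another probe set, TNFAIP3 (r = 0.983). LTF was nearest to KIAA1107 (r = 0.938), TFAP2C (r = 0.927) and SCGB3A2 (r = 0.925), and CFI to XDH (r = 0.972), GRAMD2A (r = 0.969) and MEAK7 (r = 0.966).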

How the data were processed

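RNA of 12 MCF-10A samples was read on 1 Affymetrix platform. The deposited values are log2 signals per probe set and array, and the submitters' processing notes name RMA (background correction, quantile normalization and summary) and limma, with versions not given in the sources used here. Quantile normalization hides any shift of most genes in 1 direction. Of 54675 probe sets, 62 controls were left out and 54613 tested. Probe sets were named from the platform annotation, and all 15 members matched a RefSeq gene number. A limma (3.58.1, R 4.3.3) model of group means took all 12 arrays (8 residual and 4.30 prior degrees of freedom), for 6 comparisons, two-sided, with Benjamini-Hochberg adjustment over all probe sets within each. The fit was tested on simulated data. List genes used the brightest probe set, that with the highest mean over 12 arrays (123 of 141 list genes). From each list, up to 4 called genes per direction with the largest change could be named. A few uncalled genes (C2, C1QA) are named for their role. So is CD46, a called gene whose fall was smaller than those of CFHR2 and C5AR1, whose values are not given. A few further genes are named only for calls lost under the alternatives run. The 9 genes and the lists were chosen with earlier results of these data known. Replicate numbers were not used as pairs in the main fit. Deviations from group means of same-numbered arrays correlated between -0.20 and 0.24, and 2 of 18 pairs exceeded 0.1. Those of different-numbered arrays correlated between -0.24 and 0.22, and 6 of 36 pairs exceeded 0.1. With 3 arrays a group, this check cannot exclude a pairing.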

Additional observations from a re-analysis of the deposited data

How the results depend on the processing

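The member results were recomputed under 20 alternatives, among them cyclic loess, median centring, leaving out dim probe sets, a trended and robust moderation, array weights, fits of only the groups compared, 1 probe set per gene, and leaving out each array. Of 90 differences (15 probe sets in 6 comparisons), 85 kept their side of the threshold throughout, and no called difference changed sign. With NICD below Notch1 L1601P+∆P, the 2 lower calls became 1 after cyclic loess, median centring, fitting only those groups or the replicate block, and 1 to 2 with each array left out, all through CFI. With Notch1 L1601P+∆P below full-length Notch1, the 0 lower calls by limma (unadjusted p under 0.05: 2) became 1 without dim probe sets or with trended, robust moderation, through the dimmer CFI probe set (-0.24, adjusted p = 0.0374 and 0.0443). Without NICD replicate 2, a dim CP probe set (204846_at) was called lower than with full-length Notch1 (-0.31, adjusted p = 0.0377). The replicate block changed no other member call. The same alternatives were added for list genes after seeing the data, and 41 of 54 calls against vector were kept under each. The share of calls that were higher moved with scaling, up after cyclic loess in these comparisons. For NICD it was 34.9% against vector (49.1% after cyclic loess, 32.9% after median centring), 46.3% against Notch1 L1601P+∆P (55.1% and 50%) and 39.2% against full-length Notch1 (51.2% and 31.4%). For Notch1 L1601P+∆P it was 46.1% against vector (57.8% and 39.9%) and 56.6% against full-length Notch1 (67.1% and 38.1%). Signals near the floor limit what can be said of CP. Low vector signals limit what can be said of LTF, FGG, AGT, LBP, C3AR1 and C5AR2.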
